A study of Mus musculus with 14 samples.

Results

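Cultured keratocytes were compared with immature corneal stroma, to ask which matrix, growth and contractile genes active in culture reached or passed their level in the tissue at postnatal day 10 (P10). The comparison used 5 of the 14 arrays of the study, 3 titled as corneal keratocytes and 2 titled as P10 cornea. The keratocyte cultures were primary stromal cells of CD-1 mice aged 7 to 8 weeks, grown in DMEM with 1% platelet-poor horse serum, and the P10 samples were stroma dissected from CD-1 mice of 10 days. The other 9 arrays were adult CD-1 stroma (7 to 8 weeks, 3 arrays), 3 fibroblast cultures kept in fetal bovine serum at 10%, and 3 myofibroblast cultures that also received TGF-beta1 at 10 ng/ml in the same serum. They entered the fit only for its estimate of spread, and adult means are printed because the cultures were started from adult stroma. Each array, an Affymetrix MG_U74Av2, was made from 5 µg of total RNA. The labels do not say that replicates came from separate animals or cultures, so p-values measure the spread between these arrays, which may be technical. Culture, the age of the donor and the cell types present all differed between the groups, and their effects cannot be told apart.

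The corneal stroma is a stack of collagen fibrils of uniform width, built and kept by keratocytes. Fibrils of type I collagen mixed with type V are spaced by small leucine-rich proteoglycans such as decorin, lumican and keratocan, and this order keeps the tissue transparent. Keratocytes make matrix and divide during early postnatal growth, become quiet in the adult, and can turn into fibroblasts and contractile myofibroblasts after a wound or in culture.

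In all, 10088 probe sets with a mean signal of 50 or more in either group were tested with limma, a linear model with a shared estimate of the spread, on log2(signal + 16). An adjusted p below 0.05 was called. Most called genes were named by a rule that asked for no overlap between the arrays of the groups. For them such separation is no further support. A log2 difference is culture minus P10 on that scale, and a fold is the ratio of the mean signals. A gene that was not called is described as within 2-fold when the 95% confidence interval of its log2 difference lay between -1 and 1, and as unresolved otherwise. The background level, 137.7, is the 95th percentile of the signals of control probe sets whose transcripts were absent from the samples. Where a group mean was lower than that, signals and the adjusted p are given without a fold.

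The arrays of each group resembled each other, with correlations of log2 signals from 0.970 to 0.987 among the keratocyte cultures and of 0.977 between the P10 arrays, against 0.836 to 0.855 across the groups. The 3'/5' signal ratio of Actb, which rises with RNA degradation, was 1.12 ± 0.0619 (SD, n = 3) in culture and 1.45 ± 0.0185 (SD, n = 2) at P10. The mean signal of the hybridisation control transcripts was 1253 ± 226 (SD, n = 3) in culture and 1837 ± 304 (SD, n = 2) at P10, with no overlap. With the 3'/5' ratio of Gapdh (0.847 ± 0.00459 in culture and 0.916 ± 0.0287 at P10, SD, same n) as a covariate in limma, 873 probe sets were higher and 673 lower, and 108 of the 110 named calls held, the exceptions being Col18a1 and Papss2 (adjusted p = 0.0712 and 0.0615). The part of the Actb ratio and of the hybridisation controls in the results was not tested. The P10 tissue carried RNA of other cell types. Summed over 28 tested markers of corneal epithelium the signal was 37568 to 37938 at P10 and 1949 to 2106 in culture, where 21 of the 28 lay below the background level. Lens and retina markers also stood higher at P10, with sums of 11598 to 17626 against 1819 to 2132 for 11 lens genes, and of 3619 to 5237 against 773 to 868 for 15 retina genes. Markers of macrophages and leukocytes went the other way, from a sum of 3417 to 3456 at P10 to one of 5705 to 7058 in culture over 24 genes. In such bulk samples fewer cells of a type and less RNA per cell cannot be told apart.

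Of all 7292 genes tested, 667 (9.15%) were higher in culture, 496 (6.8%) were lower, and 4541 (62.3%) were within 2-fold. Over probe sets the counts were 920 higher (9.12%) and 684 lower (6.78%). The shares over all genes are those to set beside the counts of each list below. They do not apply to counts at an unadjusted p, for which no share over all genes was computed. Among 139 tested matrix genes 45 were higher (32.4%), 16 lower and 49 within 2-fold, with a median log2 difference of 0.27, beside 0.0038 over all genes tested. Among 207 growth genes 39 were higher (18.8%), 15 lower and 98 within 2-fold, with a median of 0.14. Among 86 contractile and cytoskeleton genes 25 were higher (29.1%), 8 lower and 32 within 2-fold, with a median of 0.27. A further 11 matrix, 11 growth and 4 contractile genes on the array had signals too low to be kept. Without keratocyte replicate 1 or 3 the higher probe sets numbered 594 and 591, and without P10 replicate 1 or 2 they numbered 476 and 477. The lower probe sets then numbered 395 without P10 replicate 1 and 392 without P10 replicate 2. Without P10 replicate 1 or 2, the lower matrix genes numbered 9 and 8 and the lower growth genes 8 and 9, and without P10 replicate 1 only 2 contractile genes were lower.

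The P10 level was that of tissue that also carried RNA of epithelium, lens and retina. The part of that RNA in the counts below was not tested. A gene was taken as active in culture when its mean there was 137.7 or more. Of 109 such matrix genes, 41 passed the P10 level, 32 were within 2-fold of it and 11 lay below it, and 25 were unresolved. Thus 73 matrix genes (67%) reached or passed their level in the P10 tissue. For growth genes the count was 92 of 140 (65.7%), made of 36 that passed and 56 within 2-fold, and for contractile genes 53 of 76 (69.7%), made of 25 and 28. The same share over all genes active in culture was 75.8% (3544 of 4675), of which 576 passed and 2968 were within 2-fold. Hence the share that reached or passed was lower in each class than over all genes. Unresolved genes were 22.9%, 29.3% and 23.7% of the classes beside 20.4%, and lower genes 10.1%, 5% and 6.58% beside 3.79%. The share that passed was higher, 37.6%, 25.7% and 32.9% beside 12.3%. Asking for signal in culture favours such genes, and over all genes the higher share was 9.15% without that step. The lists were also written with earlier results of these data known, so these shares are not independent support.

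**Figure D1:**
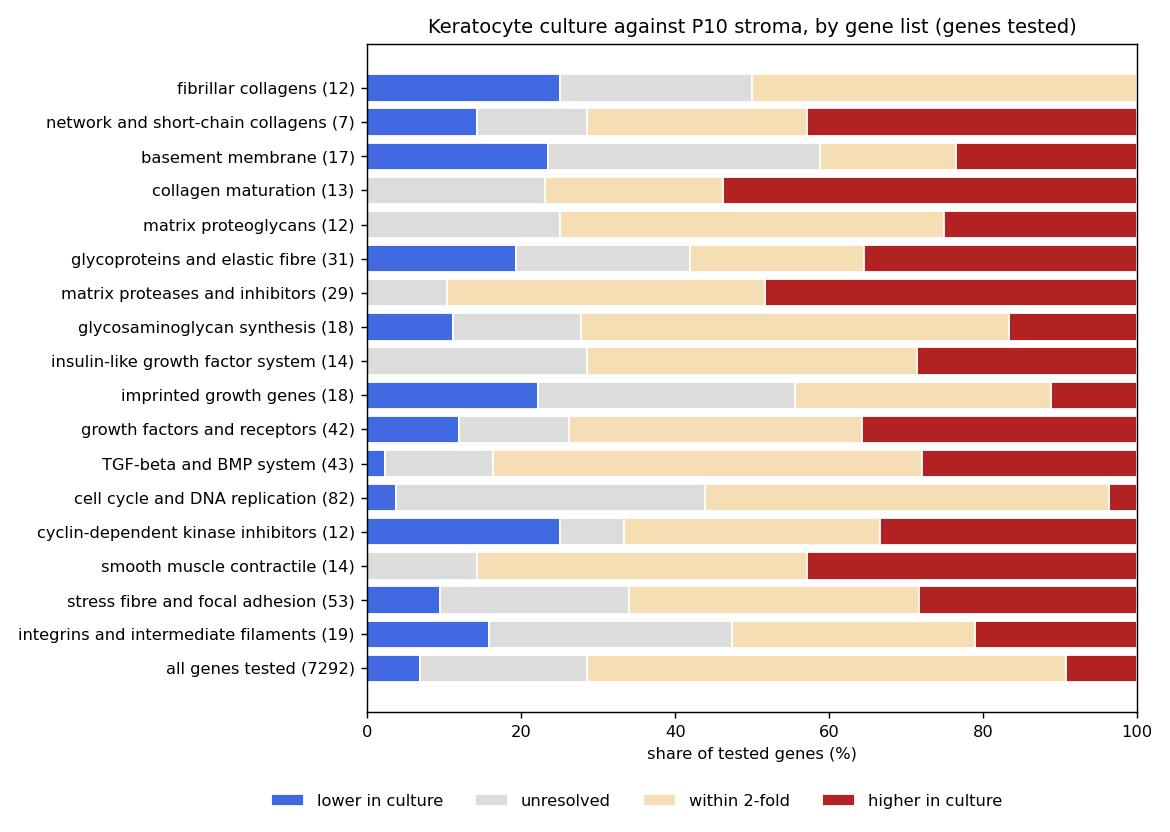
Share of the tested genes of each list (x axis, percent; number of genes in brackets) that was lower in culture, unresolved, within 2-fold or higher in culture than in P10 stroma. Collagen maturation (7 of 13 genes) and matrix proteases and inhibitors (14 of 29) had the longest bars of higher genes. No member of the fibrillar collagen list (0 of 12, fibril-associated collagens included) was higher.

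**Figure D2:**
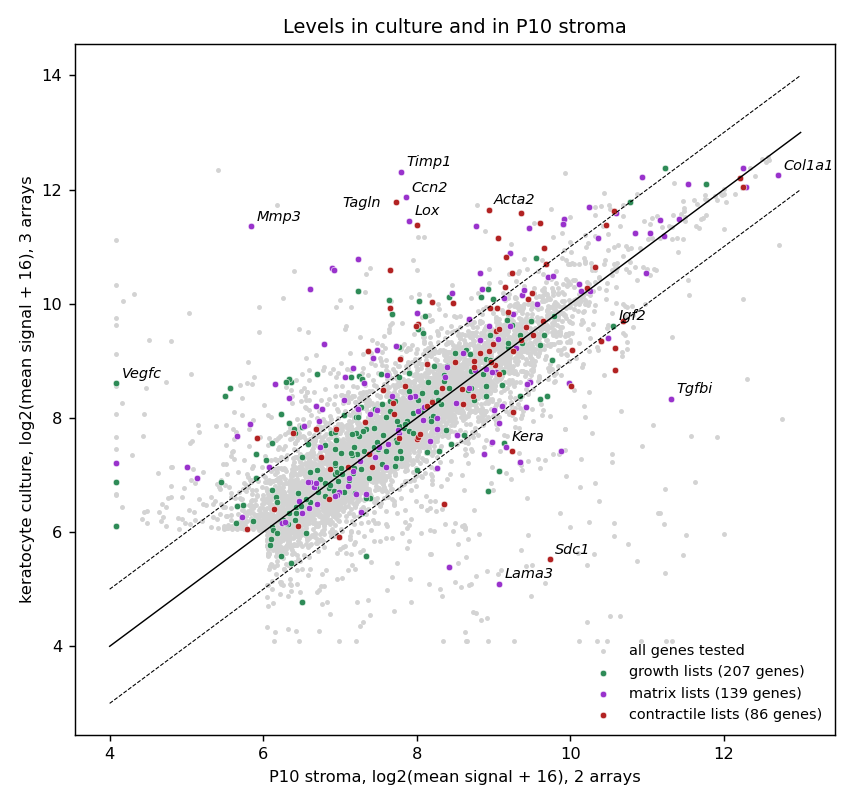
Level of each tested gene at P10 (x axis, 2 arrays) and in keratocyte culture (y axis, 3 arrays), as log2 of the mean signal plus 16. The solid line marks equal levels and the dashed lines a 2-fold difference. Timp1, Ccn2, Tagln and Lox lie far above the lines, Col1a1 lies close to equality, and Tgfbi, Lama3 and Sdc1 lie far below.

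No fibrillar collagen, the family that makes up the bulk of the stroma, was called higher in culture. The list also held fibril-associated collagens, such as Col14a1 and Col9a2. Of its 12 tested members 0 were higher, 3 were lower, 6 were within 2-fold and 3 were unresolved. Their median log2 difference was -0.28. At an unadjusted p below 0.05 limma gave 0 higher and 4 lower members. Col1a1, the main chain of type I collagen, read 6354 and 6926 at P10 and 5122, 4671 and 4818 in culture, beside an adult mean of 2882. Every culture array lay below both P10 arrays and every adult array below the cultures. The log2 difference was -0.45 ± 0.13 (SE, limma adjusted p = 0.0247), so that culture held 73.3% of the P10 signal. The limma call did not hold without keratocyte replicate 2 (adjusted p = 0.0686) or 3 (0.0727), nor without P10 replicate 1 (0.09) or 2 (0.237), nor with no filter (0.0557) or no trend in the variance (0.085). Col1a2, the second chain of type I collagen, was within 2-fold, with a log2 difference of -0.25 and an interval from -0.63 to 0.12. Its partners in the fibril, Col5a1 (1095 at P10 and 1280 in culture) and Col5a2 (2281 and 2799), were also within 2-fold, except that both were unresolved without P10 replicate 1.

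Col3a1, a collagen of young and healing tissue, averaged 1205 at P10 and 1185 in culture, with an adult mean of 98.2. Its arrays overlapped, 1284 and 1127 at P10 against 1220, 1085 and 1249 in culture. The interval of the log2 difference ran from -1.20 to 1.16, so a difference somewhat beyond 2-fold in either direction was not excluded. That interval used a spread estimated over all groups of the study, not over the compared arrays alone. The SD of the signals was 111 at P10, 87.9 in culture and 36.9 in adult stroma, where the mean was far lower. Col3a1 was unresolved on that basis, although its P10 and culture arrays lay close together. The fibril-associated Col14a1 was lower in culture. It read 444 and 467 at P10 against 171, 115 and 161, a log2 difference of -1.53 ± 0.33 (SE, limma adjusted p = 0.00482, 0.0508 without P10 replicate 2). Col11a2 was lower as well, 668 and 720 against 348, 361 and 436 (limma adjusted p = 0.0101), although without P10 replicate 1 (0.0595) or 2 (0.103) it was not called. Thus each of the 3 lower calls in this list was lost without at least 1 of the P10 arrays. Of the 3, Col1a1 and Col11a2 are fibrillar chains and Col14a1 is fibril-associated.

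Among 7 network and short-chain collagens 3 were higher, 1 was lower and 2 were within 2-fold. Col8a1, a short-chain collagen found in the basement membrane of the corneal endothelium, read 583 and 577 at P10 and 2044, 1612 and 1959 in culture. The groups did not overlap, and the log2 difference was 1.66 ± 0.23 (SE, limma adjusted p = 0.000146), a 3.23-fold ratio. In adult stroma its mean was 86.4. The transmembrane collagen Col13a1 was higher by 0.76 (limma adjusted p = 0.0148, but 0.0682 without keratocyte replicate 3, 0.19 without P10 replicate 1 and 0.29 as the median over its probe sets). Col18a1, the source of endostatin, was just past the threshold (limma adjusted p = 0.0497) and was not called without any 1 of the 5 arrays, with adjusted p from 0.0798 to 0.254. The only lower member was Col6a2, a chain of the beaded filaments of type VI collagen, at 1495 and 1350 against 678, 569 and 728. Its limma adjusted p was 0.0179, and 0.0565, 0.136 and 0.0869 without keratocyte replicate 2, P10 replicate 1 and P10 replicate 2. Col6a1 averaged 2014 and 1468 and was within 2-fold in the fit reported, but in 10 of 21 alternatives only. Without keratocyte replicate 3 or P10 replicate 1 the higher members numbered 1, and without keratocyte replicate 1 or either P10 array 0 were within 2-fold (1 without keratocyte replicate 3).

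The basement membrane list of 17 genes split, with 4 higher, 4 lower, 3 within 2-fold and 6 unresolved. The type IV collagen chains Col4a1 and Col4a2 were higher, while the chain Col4a4 was not called. Col4a2 read 437 and 453 at P10 and 1140, 1260 and 1231 in culture, a log2 difference of 1.41 ± 0.18 (SE, limma adjusted p = 5.96e-05). Its partner Col4a1 rose from 1238 and 1356 to 2311, 2132 and 2365 (limma adjusted p = 0.00819, 0.094 without P10 replicate 1). For both chains all culture arrays lay above all P10 arrays, as the rule for naming them required. Lama4, a laminin chain of vessels and mesenchyme, averaged 133 and 272 (limma adjusted p = 0.0049), with 0.546 as the median over its probe sets and 0.111 without P10 replicate 1, where 2 of the 4 higher calls were left.

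On the lower side were laminin chains of epithelium and agrin. Lama3 read 555 and 493 at P10 and 17.9, 15.9 and 20.6 in culture (limma adjusted p = 1.33e-08), and Lamb3 read 339 and 315 against 25.5, 23.3 and 28.9 (1.01e-06). In culture both lay below the background level on every array. Agrn, a heparan sulfate proteoglycan, fell from 977 and 1018 to 397, 299 and 422 (log2 difference -1.40, limma adjusted p = 0.000929). The epithelial markers moved the same way, with 27 of 28 lower in culture, and their part in these results was not tested. Perlecan (Hspg2), the chain Col4a4 and the chain Lama1 were within 2-fold, the narrowest interval being that of Lama1, from -0.36 to 0.32. With array quality weights Hspg2 was called higher (limma adjusted p = 0.0117).

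Collagen maturation was the matrix list with the highest median, 0.99, and 7 of its 13 members were higher in culture, 0 lower and 3 within 2-fold by limma (9 higher and 0 lower at an unadjusted p below 0.05). These enzymes and chaperones hydroxylate, fold and cross-link collagen chains. Lox, the lysyl oxidase that cross-links collagen and elastin, read 241 and 204 at P10 and 2718, 2781 and 2889 in culture, beside an adult mean of 37.8. The ratio was 12.6-fold, and the log2 difference 3.57 ± 0.26 (SE, limma adjusted p = 2.15e-07). All culture arrays lay far above both P10 arrays, and the adult mean was below the background level. P4ha1, the catalytic chain of prolyl 4-hydroxylase, went from 97.6 and 92.8 to 688, 511 and 626 (limma adjusted p = 1.51e-05). Its second subunit P4hb, a protein disulfide isomerase, averaged 745 and 1010 and was within 2-fold. The related oxidase Loxl1 read 34.3 and 34.8 at P10 and 207, 153 and 212 in culture (limma adjusted p = 0.00013).

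The collagen chaperone Serpinh1 read 1503 and 1551 at P10 and 2952, 2885 and 3356 in culture, with a log2 difference of 0.99 (limma adjusted p = 0.0105). Plod3, a lysyl hydroxylase, and P4ha2 were higher as well (limma adjusted p = 0.00162 and 0.000416). The cross-linking transglutaminase Tgm2 averaged 118 at P10, 404 in culture and 1235 in adult stroma. Its call (limma adjusted p = 0.0226) did not hold without keratocyte replicate 1 (0.0653) or 3 (0.0673) or without P10 replicate 1 (0.126) or 2 (0.13). The procollagen proteinase Bmp1 and the collagen-binding Sparc were within 2-fold under each of the 21 alternatives.

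**Figure D3:**
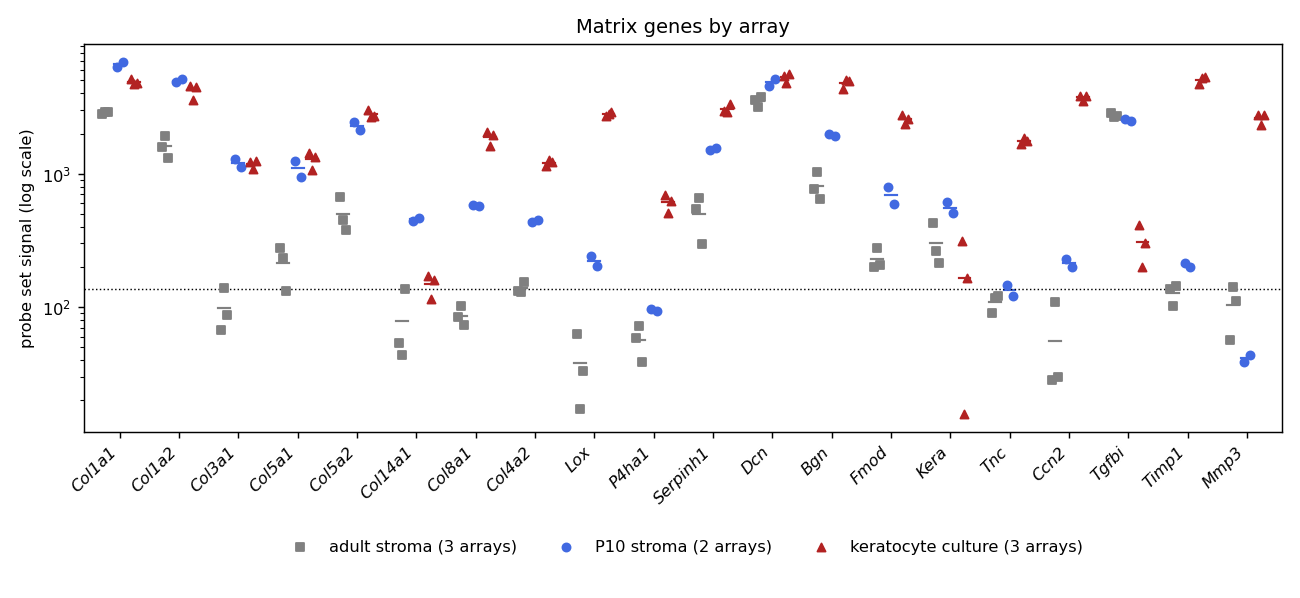
Signals of 20 matrix genes (y axis, log scale) on each array of adult stroma, P10 stroma and keratocyte culture. Points are arrays, short lines are group means and the dotted line is the background level of 137.7. The chains of type I, III and V collagen sit at similar heights at P10 and in culture, while Lox, Tnc, Ccn2, Timp1 and Mmp3 are higher in every culture array and Tgfbi is lower.

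Of 12 proteoglycans of the matrix tested, 3 were higher, 0 were lower (1 without keratocyte replicate 1, and 1 by limma at an unadjusted p below 0.05), 6 were within 2-fold and 3 were unresolved. Decorin (Dcn), which binds collagen fibrils, read 4570 and 5172 at P10 and 5419, 4806 and 5630 in culture. The arrays overlapped and the interval of the log2 difference, from -0.16 to 0.39, lay within 2-fold under each of the 21 alternatives. Biglycan (Bgn), a close relative of decorin, passed its P10 level, with 1981 and 1915 against 4341, 5003 and 4987. The log2 difference was 1.28 ± 0.16 (SE, limma adjusted p = 6.29e-05). Fibromodulin (Fmod), which also binds collagen fibrils, went from 790 and 592 to 2742, 2348 and 2580, a 3.70-fold ratio (limma adjusted p = 0.000445).

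The corneal keratan sulfate proteoglycans behaved less evenly. Lumican (Lum) read 2646 and 2090 at P10 and 3254, 1122 and 2553 in culture, and its interval, from -0.99 to 0.67, was just within 2-fold (in 14 of 21 alternatives, but not without keratocyte replicate 1 or 3 or either P10 array). Keratocan (Kera), the most restricted to the cornea of the family, read 609 and 504 at P10 and 315, 15.7 and 164 in culture. All 3 cultures lay below both P10 arrays, but they spread widely, and the log2 difference of -2.21 was not called (limma adjusted p = 0.0784). Without keratocyte replicate 1 it was called (limma adjusted p = 0.0225) and without keratocyte replicate 2, the lowest, the difference was -1.22 (0.23).

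Glycoproteins and elastic fibre genes moved in both directions. Of 31 tested, 11 were higher, 6 lower and 7 within 2-fold. Ccn2 (connective tissue growth factor), a matricellular protein induced by TGF-beta, read 231 and 200 at P10 and 3828, 3530 and 3832 in culture. The ratio was 17.3-fold and the log2 difference 4.02 ± 0.41 (SE, limma adjusted p = 7.6e-06). Its relative Ccn1 read 92.5 and 71.4 against 1416, 1044 and 1145 (limma adjusted p = 7.55e-07), and tenascin C (Tnc), a glycoprotein of wounds and development, 147 and 121 against 1660, 1838 and 1763 (1.12e-06). For each of these genes every culture array lay far above both P10 arrays, and separate arrays were required for naming them. Matrix Gla protein (Mgp), an inhibitor of calcification, was 6.19-fold higher in culture, with a log2 difference of 2.58 ± 0.33 (SE, limma adjusted p = 5.86e-05). Fibronectin (Fn1) averaged 2944 at P10, 4358 in culture and 1278 in adult stroma. Its difference of 0.56 was near the threshold (limma adjusted p = 0.044) and was not called without any 1 of the 5 arrays, with 0.0847, 0.0722 and 0.135 without keratocyte replicate 1, 2 and 3 and 0.187 and 0.214 without P10 replicate 1 and 2, nor under 5 other alternatives (0.0503 to 0.0785).

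The lower members included Tgfbi, a collagen-binding protein abundant in the cornea and mutated in corneal dystrophies. It read 2564 and 2472 at P10 and 415, 200 and 305 in culture, beside an adult mean of 2742. The log2 difference was -3.03 ± 0.37 (SE, limma adjusted p = 4.41e-05), and -2.77 without keratocyte replicate 2. Epithelial markers were lower in 27 of 28 cases, and their part in the lower genes of this list was not tested. Ltbp4, which binds latent TGF-beta to elastic fibres, fell from 871 and 972 to 148, 138 and 182 (limma adjusted p = 0.000112), and the microfibril protein Mfap4 from 528 and 453 to 208, 125 and 193 (0.00289). Matrilin 1 (Matn1) read 633 and 636 against 193, 71.4 and 136 (limma adjusted p = 0.000712). In none of these 4 genes did a culture array reach a P10 array, which the rule for naming them required. Smoc1 and Ltbp3 were within 2-fold under each of the 21 alternatives.

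Of 29 matrix proteases and inhibitors 14 were higher in culture, 0 lower and 12 within 2-fold, with a median of 0.66. At an unadjusted p below 0.05 limma gave 16 higher and 1 lower. Timp1, the tissue inhibitor of metalloproteinases, read 214 and 200 at P10 and 4699, 5201 and 5322 in culture, a 24.5-fold ratio. Its log2 difference of 4.51 ± 0.17 (SE, limma adjusted p = 2.1e-10) was the highest of the list among genes above background in both groups. Mmp3 (stromelysin), which cleaves many matrix proteins, read 38.8 and 43.7 against 2746, 2316 and 2770 (limma adjusted p = 2.47e-06). Timp2 read 100 and 110 against 1582, 1678 and 1326 (limma adjusted p = 3.77e-09). Thus the protease and both inhibitors were high on every culture array and low at P10. Mmp12, the metalloelastase of macrophages, read 92.8 and 114 at P10 and 1890, 1112 and 1719 in culture (limma adjusted p = 2.75e-05). Macrophage and leukocyte markers moved the same way, with 10 of 24 higher and 1 lower, and their part in this was not tested. The collagenase Mmp14 averaged 671 and 752 and the gelatinase Mmp2 62.2 and 56.3, both within 2-fold, the latter below the background level in both groups. The cathepsin Ctsl and the sheddase Adam17 were within 2-fold under each of the 21 alternatives.

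Of 18 genes of glycosaminoglycan synthesis 3 were higher (16.7%, beside 9.15% of all genes tested), 2 lower (11.1%, beside 6.8%) and 10 within 2-fold. Ext1, a polymerase of heparan sulfate, read 151 and 134 at P10 and 388, 357 and 374 in culture (log2 difference 1.30, limma adjusted p = 0.000486). Papss1 and Papss2, which make the sulfate donor, were lower, 528 and 549 against 311, 253 and 280 for the first and 579 and 463 against 223, 188 and 259 for the second. Ugdh, which makes glucuronate donors, was 2.10-fold higher, and B3gnt2, an extender of poly-lactosamine chains, 1.67-fold higher. Apart from Ext1 these calls were unstable. By limma Papss1 had an adjusted p of 0.00786, and of 0.0577 and 0.0751 without P10 replicate 1 and 2. Papss2 had 0.0431, and 0.0676 to 0.251 when any 1 of the 5 arrays was left out. Ugdh had 0.0137, with 0.0545 and 0.163 without keratocyte replicate 1 and P10 replicate 2, and B3gnt2 had 0.0286, with 0.0762, 0.094, 0.199 and 0.11 without keratocyte replicate 1 or 3 and P10 replicate 1 or 2, and 0.139 as the median over its probe sets. The higher members numbered 1 without keratocyte replicate 1 or P10 replicate 2, and 6 members were within 2-fold without P10 replicate 1. The lower members numbered 1 without any 1 of the keratocyte arrays and 0 without either P10 array.

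Within the insulin-like growth factor system, a main driver of fetal and early postnatal growth, 4 of 14 members were higher, 0 lower (1 without keratocyte replicate 1, and 2 by limma at an unadjusted p below 0.05) and 6 within 2-fold. The ligand Igf2 read 1300 and 1690 at P10 and 1091, 426 and 788 in culture, beside an adult mean of 230. All cultures lay below both P10 arrays and all above the adult mean. The log2 difference of -1.03 was not called (limma adjusted p = 0.0663), but it was called without keratocyte replicate 1 (0.0242), and without keratocyte replicate 2 it was -0.67 (0.213). Igf1 averaged 266 and 277 and was within 2-fold under each of the 21 alternatives. Of the receptors, Igf1r averaged 760 and 606 and Igf2r, which clears Igf2, 218 and 230, both within 2-fold, although both were unresolved without keratocyte replicate 1 or 3 or either P10 array.

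The 4 higher members were Igfbp2 and Igfbp3, binding proteins that hold the ligands outside the cell, Htra1 and Grb10. Igfbp2 read 2500 and 2279 at P10 and 5126, 5515 and 5298 in culture, with a log2 difference of 1.15 ± 0.16 (SE, limma adjusted p = 0.000146). Igfbp3 read 58.1 and 75.1 against 372, 380 and 387 (limma adjusted p = 0.0124, but 0.11 and 0.0641 without P10 replicate 1 and 2). Htra1, a secreted protease that cuts binding proteins and matrix, was 2.82-fold higher, from 950 and 940 to 2883, 2306 and 2816 (limma adjusted p = 0.000202). The adaptor Grb10, an inhibitor of signalling by the receptor, read 56.7 and 73.2 against 212, 236 and 226 (limma adjusted p = 0.00158). For each of the 4 every culture array lay above both P10 arrays, as the rule for naming them required. Without P10 replicate 1 the members within 2-fold numbered 3.

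Imprinted growth genes form a set expressed from 1 parental allele, much of which is turned down after early growth. Of 18 tested 2 were higher (11.1%, near the 9.15% of all genes tested), 4 lower (22.2%, beside 6.8%) and 6 within 2-fold. Cdkn1c, an imprinted inhibitor of the cell cycle, read 532 and 562 at P10 and 241, 97.9 and 178 in culture, beside an adult mean of 66.9. The log2 difference was -1.66 ± 0.32 (SE, limma adjusted p = 0.0022), and -1.33 without keratocyte replicate 2. Dlk1, a Notch-like protein of immature cells, fell from 394 and 358 to 197, 179 and 197 (log2 difference -0.92, limma adjusted p = 0.00219), about the adult mean of 196. Slc38a4, an amino acid transporter, and Nnat were also lower (limma adjusted p = 0.00948 and 0.0104), but Slc38a4 had 0.0564 and 0.0984 without P10 replicate 1 and 2, and Nnat 0.162 without P10 replicate 2, where 2 lower calls were left. Sgce, a sarcoglycan, was higher, at 68.4 and 60.9 against 542, 255 and 383 (limma adjusted p = 0.000106). Ascl2 was within 2-fold under each of the 21 alternatives. Gnas was within 2-fold too (log2 difference 0.34), but was called higher by limma under 3 alternatives (adjusted p = 0.00186 to 0.0449). Peg3 was within 2-fold with the probe set that stood for it (-0.21) and was called lower as the median over its probe sets (-1.01, limma adjusted p = 0.0324).

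Of 42 growth factors and receptors tested, 15 were higher (35.7%, beside 9.15% of all genes tested). A further 5 were lower (11.9%, beside 6.8%) and 16 within 2-fold. Among the ligands Vegfc, a factor for lymphatic vessels, was at the floor of 1 on both P10 arrays and read 478, 257 and 392 in culture (limma adjusted p = 1.77e-06). Stem cell factor (Kitl) read 272 and 246 against 1013, 691 and 909 (log2 difference 1.67, limma adjusted p = 4.38e-05), and the macrophage growth factor Csf1 470 and 518 against 975, 1143 and 1073 (1.08, adjusted p = 0.00354). Pdgfa and Vegfb were within 2-fold under each of the 21 alternatives, with means of 461 and 504 and of 274 and 241. Ptn, a heparin-binding factor, read 105 and 188 against 33.8, 22 and 40.1. It was lower by limma at an adjusted p of 0.0278 and not called without any 1 of the 5 arrays (0.0528 to 0.281).

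Among the receptors, Pdgfra, Pdgfrb and Axl were higher in culture. Pdgfra, a receptor of platelet-derived growth factor, read 128 and 141 at P10 and 1528, 783 and 1232 in culture (limma adjusted p = 0.000189). Pdgfrb read 25.3 and 33.2 against 323, 304 and 321 (limma adjusted p = 9.21e-06). Both were near or below the background level in the tissue and well above it in every culture. Axl, the receptor of Gas6, was 5.79-fold higher, at 194 and 172 against 1089, 916 and 1178 (log2 difference 2.43 ± 0.32, SE, limma adjusted p = 9.94e-05). Its ligand Gas6 averaged 280 and 247 and was within 2-fold.

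The receptors Fgfr2, Kit and Erbb3 were lower in culture. Fgfr2, which binds fibroblast growth factors, read 884 and 744 against 352, 263 and 335 (log2 difference -1.32, limma adjusted p = 0.000522). Kit, the receptor of stem cell factor, read 493 and 546 against 119, 95.5 and 142 (limma adjusted p = 1.5e-05), and Erbb3, a neuregulin receptor, 497 and 443 against 103, 64.9 and 100 (8.06e-06). The last pair averaged below the background level in culture while their adult means, 444 and 555, were close to P10. Epithelial markers fell in the same comparison, 27 of 28, and their part in the lower receptors was not tested.

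**Figure D4:**
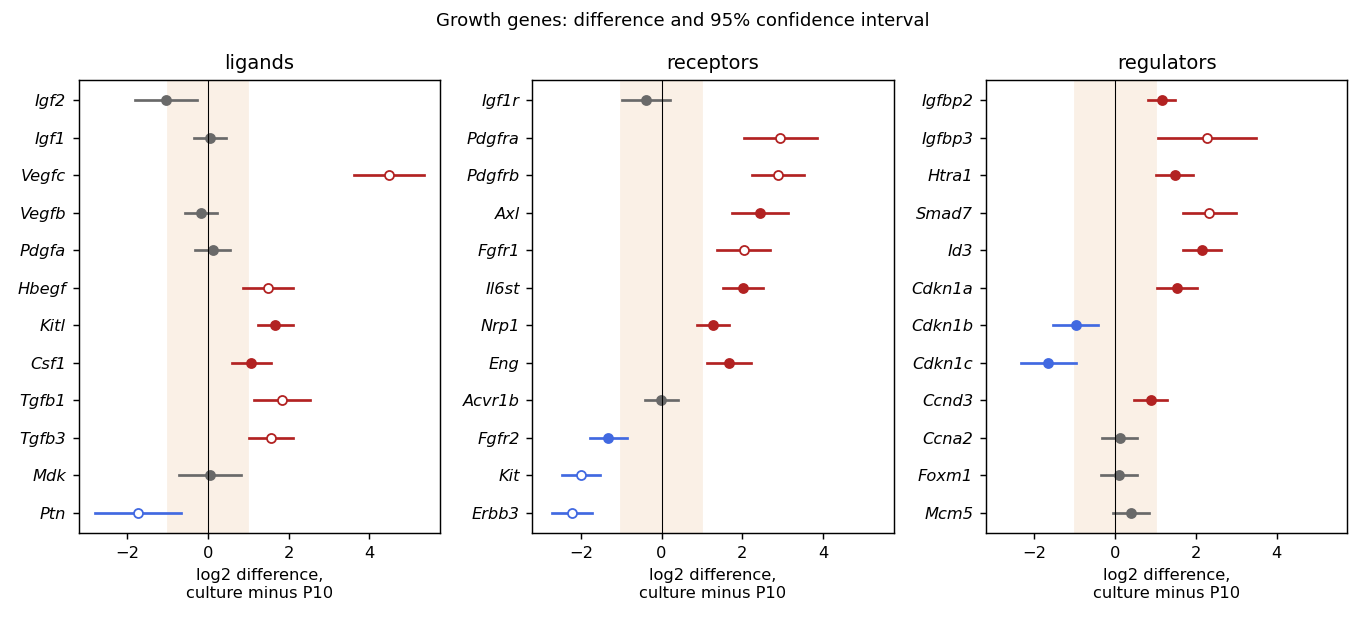
Log2 difference, culture minus P10, of 36 growth genes with its 95% confidence interval from limma (x axis). Red marks genes called higher, blue genes called lower and grey genes not called, open points have a group mean below the background level, and the shaded band is 2-fold either way. Ligands such as Igf1, Pdgfa and Vegfb lie in the band, Pdgfra, Pdgfrb, Axl and Smad7 lie to its right, and Kit, Erbb3 and Cdkn1c lie to its left.

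The TGF-beta and BMP system holds ligands, receptors, Smad transducers and their targets. Of 43 tested 12 were higher, 1 was lower and 24 were within 2-fold. The ligand Tgfb1 read 63.8 and 54.8 at P10 and 247, 243 and 266 in culture (limma adjusted p = 0.00122), and Tgfb3 122 and 130 against 380, 378 and 454 (0.000648). The coreceptor endoglin (Eng) was 3.35-fold higher, at 323 and 329 against 1332, 855 and 1096, with a log2 difference of 1.67 ± 0.25 (SE, limma adjusted p = 0.000302). Eng also marks vessel endothelium, of whose 10 tested markers 3 were higher and 0 lower by limma, with the same counts at an unadjusted p below 0.05, and their part was not tested. Among the receptors Acvr1b and Acvr2b averaged 213 and 211 and 204 and 155, and were within 2-fold. With array quality weights Acvr2b was called lower (limma adjusted p = 0.0335). The signalling receptors Tgfbr1 and Tgfbr2 were below the background level in both groups.

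Among targets and inhibitors of the pathway 2 stood out as higher. Smad7, an inhibitory Smad induced by the pathway itself, read 52.7 and 72.5 at P10 and 407, 302 and 433 in culture (limma adjusted p = 8.1e-05). Id3, a BMP target that holds back differentiation, read 162 and 215 against 881, 830 and 964, a 4.72-fold ratio (log2 difference 2.16 ± 0.22, SE, limma adjusted p = 6.68e-06). Its relative Id1 averaged 544 and 433 and was within 2-fold. Id4 averaged 152 and 81.3 and was the lower member (limma adjusted p = 0.0227), not called without keratocyte replicate 1 (0.0853) or P10 replicate 1 (0.245). The BMP antagonist Chrd was within 2-fold under each of the 21 alternatives.

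Few cell cycle and DNA replication genes were called. Of 82 tested, 3 were higher (3.66%) and 3 were lower. A further 43 were within 2-fold (52.4%, beside 62.3% of all genes tested) and 33 were unresolved (40.2%, beside 21.8%), with a median log2 difference of 0.11. Ccna2 (cyclin A2) averaged 277 at P10 and 299 in culture, and Foxm1, a regulator of mitotic genes, 249 and 267, and both were within 2-fold under each of the 21 alternatives. The replication licensing factor Mcm5 averaged 588 and 777 and was within 2-fold as well, in 18 of 21 alternatives. It was not so without P10 replicate 2 or as the median over its probe sets. With array quality weights Mcm5 was called higher (limma adjusted p = 0.0135). Mki67, the usual marker of dividing cells, read 402 and 233 at P10 and 209, 170 and 235 in culture, beside an adult mean of 227. The arrays overlapped, and the log2 difference of -0.56 was unresolved (limma adjusted p = 0.238). P10 replicate 1 also read higher than P10 replicate 2 for the mitotic genes Kif23 and Kif22, and without it 23 members of the list were within 2-fold.

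Ccnd3 (cyclin D3) read 223 and 222 at P10 and 433, 400 and 437 in culture, a log2 difference of 0.88 (limma adjusted p = 0.00555, 0.0524 and 0.0531 without P10 replicate 1 and 2). Cks1b, a partner of the cyclin-dependent kinases, and the condensin Smc2 were higher (limma adjusted p = 0.0205 and 0.0415), but not without keratocyte replicate 1 (0.0513 and 0.122), keratocyte replicate 3 (0.0751 and 0.118) or P10 replicate 2 (0.227 and 0.428), which left 1, 1 and 0 higher members. The mitotic kinesins Kif23 and Kif22 were lower, 386 and 280 against 170, 153 and 188 for the first (limma adjusted p = 0.0117, 0.179 without P10 replicate 1) and 584 and 486 against 374, 326 and 400 for the second (0.0416). Kif22 was not called without any 1 of the 5 arrays (0.062 to 0.316). Without P10 replicate 1 the lower members numbered 1.

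Inhibitors of the cyclin-dependent kinases and related arrest genes divided, with 4 of 12 higher, 3 lower and 4 within 2-fold. Cdkn1a (p21), a target of p53, read 253 and 233 at P10 and 802, 676 and 730 in culture, with a log2 difference of 1.53 ± 0.23 (SE, limma adjusted p = 0.000261). The stress genes Gadd45g and Gadd45b were higher, 24.2 and 38.8 against 367, 296 and 392 for the first (limma adjusted p = 6.63e-07) and 58.8 and 78.5 against 232, 184 and 206 for the second (0.000614). In contrast Cdkn1b (p27), which holds cells out of the cycle, read 652 and 613 against 273, 394 and 284 (log2 difference -0.98, limma adjusted p = 0.0197). That call did not hold without keratocyte replicate 1 (0.072) or 3 (0.072) or P10 replicate 1 (0.135) or 2 (0.102), each of which left 1 lower member. Btg2, Cdkn2a and Cdkn2d were within 2-fold under each of the 21 alternatives.

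The smooth muscle contractile genes mark myofibroblasts. Of 14 tested 6 were higher, 0 lower, 6 within 2-fold and 2 unresolved by limma (7 higher and 0 lower at an unadjusted p below 0.05), with a median of 0.69. Acta2 (smooth muscle actin), the defining myofibroblast gene, read 326 and 624 at P10 and 3066, 3167 and 3347 in culture, beside an adult mean of 56.0. The culture arrays lay close together and far above both P10 arrays, which differed from each other. The log2 difference was 2.78 ± 0.47 (SE, limma adjusted p = 0.000861), a 6.73-fold ratio. Tagln (transgelin), an actin-binding protein of smooth muscle, read 152 and 242 against 2990, 3799 and 3793, a ratio of 17.9-fold and a log2 difference of 4.08 ± 0.54 (SE, limma adjusted p = 9.15e-05). Tpm1 (tropomyosin 1), which lies along actin filaments, read 575 and 709 against 3123, 2875 and 3182 (log2 difference 2.23 ± 0.17, SE, limma adjusted p = 3.05e-07). The adult means of Tagln and Tpm1 were 85.7 and 219.

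Myl9, the regulatory light chain of smooth muscle myosin, read 265 and 414 at P10 and 1096, 882 and 1059 in culture (log2 difference 1.56 ± 0.30, SE, limma adjusted p = 0.00239), with an adjusted p of 0.06 without P10 replicate 1. Its promoter is shown because, of the 10 promoters of the list searched, only this 1 held an exact match to the CArG box. Serum response factor binds that motif. The sequence is from RefSeq (GRCm38.p6, plus strand, chr2:156775253-156775362), and capitals mark the box, which lies 161 to 152 bases before the start of the gene.

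Myl9: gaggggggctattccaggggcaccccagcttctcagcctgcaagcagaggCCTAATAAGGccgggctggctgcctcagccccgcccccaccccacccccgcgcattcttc

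The search covered the 250 bases before the start on both strands, for CC, then 6 bases that are A or T, then GG. A promoter was listed for 10 of the 14 genes, and 1 of the 10 held a match, beside 439 of 27025 (1.62%) of all genes with a promoter listed. Acta2 and Tpm1 had no exact match in this window, and inexact boxes were not searched for. A match is a description of the letters only.

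Among the smooth muscle genes that were not called, Smtn (smoothelin) averaged 192 and 251, Des (desmin) 240 and 182 and Itga8, an integrin of contractile cells, 521 and 419, all within 2-fold. Itga8 stayed so in only 14 of 21 alternatives, Smtn in 18 and Des in 20. With array quality weights Smtn was called higher (limma adjusted p = 0.0292), and Des and Itga8 lower (0.00957 and 0.0073). Cnn1 (calponin 1) read 445 and 570 at P10 and 660, 691 and 817 in culture, without overlap, and its difference of 0.50 was unresolved (limma adjusted p = 0.306). The count within 2-fold was 3 without keratocyte replicate 1 or 2 or P10 replicate 1, and 2 without P10 replicate 2.

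**Figure D5:**
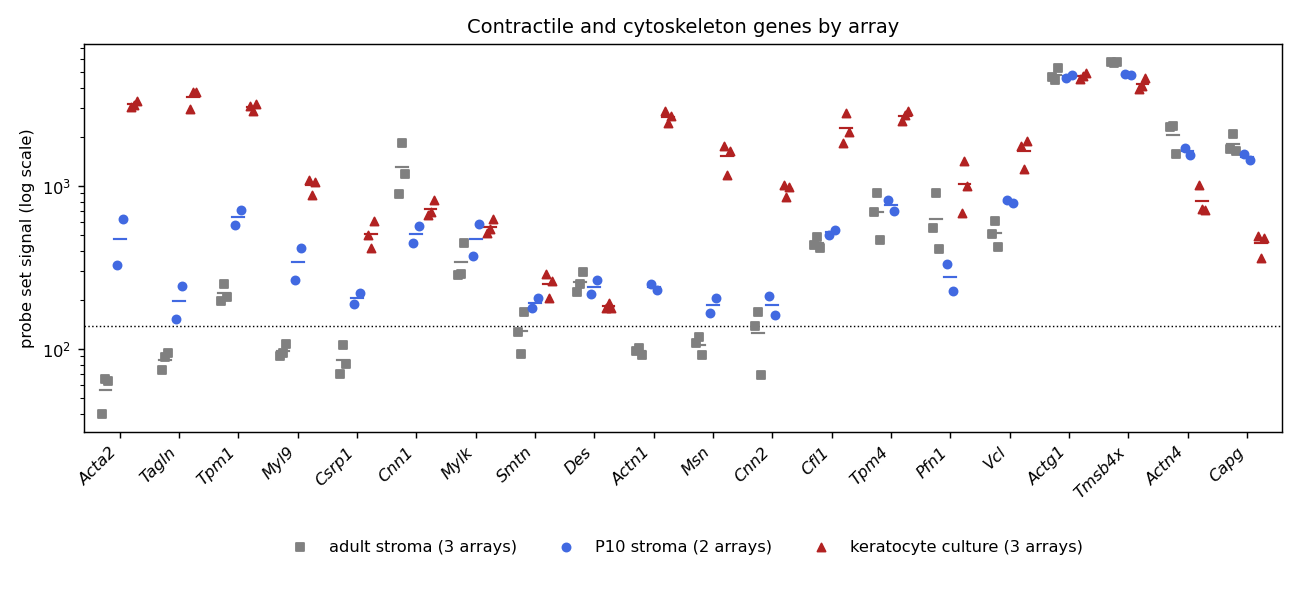
Signals of 20 contractile and cytoskeleton genes (y axis, log scale) on each array of adult stroma, P10 stroma and keratocyte culture, with group means as short lines and the background level of 137.7 dotted. Acta2, Tagln, Tpm1 and Actn1 are higher in all 3 cultures than in either tissue, Actg1 and Tmsb4x are level, and Actn4 and Capg are lower in culture.

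Among 53 genes of stress fibres and focal adhesions, the actin bundles and their anchors at the membrane, 15 were higher (28.3%, beside 9.15% of all genes tested). A further 5 were lower (9.43%, near the 6.8% of all genes tested) and 20 within 2-fold. Actn1 (alpha-actinin 1), which cross-links actin bundles, read 250 and 229 at P10 and 2873, 2433 and 2684 in culture. Its ratio was 11.1-fold and its log2 difference 3.39 ± 0.17 (SE, limma adjusted p = 3.77e-09). Moesin (Msn), a linker of actin to the membrane, read 166 and 205 against 1770, 1176 and 1637 (limma adjusted p = 1.19e-06). Cnn2 (calponin 2) was 5.13-fold and cofilin (Cfl1), which severs filaments, 4.36-fold higher, with limma adjusted p of 5.24e-05 and 0.000162. In each of these genes every culture array lay above both P10 arrays, which the rule for naming them required.

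Members of the list called lower included Actn4, Ezr, Capg and Pdlim1. Actn4 (alpha-actinin 4) read 1724 and 1554 at P10 and 1009, 718 and 708 in culture, a log2 difference of -1.02 (limma adjusted p = 0.00342, 0.0534 without P10 replicate 1). Ezrin (Ezr), the relative of moesin found in epithelia, read 646 and 542 against 294, 218 and 263 (limma adjusted p = 0.00751, 0.094 without P10 replicate 1). Capg, an actin-capping protein, fell from 1576 and 1446 to 492, 359 and 480 (log2 difference -1.74 ± 0.20, SE, limma adjusted p = 2.19e-05), and the adaptor Pdlim1 from 1162 and 875 to 377, 358 and 354 (0.00285, but 0.0586 without P10 replicate 1 and 0.192 as the median over its probe sets). The lower members numbered 1 without P10 replicate 1. Epithelial markers were lower in 27 of 28 cases, and their part here was not tested. Cytoplasmic gamma-actin (Actg1) read 4602 and 4841 at P10 and 4535, 4721 and 4918 in culture. Its interval, from -0.34 to 0.34, and that of thymosin beta 4 (Tmsb4x), from -0.44 to 0.04, lay within 2-fold under each of the 21 alternatives.

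Of 19 integrins, syndecans and intermediate filament genes 4 were higher, 3 lower and 6 within 2-fold. Itgb1, the common beta chain of matrix receptors, read 1409 and 1377 at P10 and 3023, 2167 and 2721 in culture (log2 difference 0.90, limma adjusted p = 0.00529, 0.0552 without P10 replicate 2). Its partner in the fibronectin receptor, Itga5, read 45.8 and 43.4 against 174, 177 and 204 (limma adjusted p = 0.000109). Lamin A/C (Lmna), of the nuclear lamina, was 3.22-fold higher (limma adjusted p = 0.000205). Nestin (Nes), an intermediate filament of immature cells, averaged 148 and 562 (limma adjusted p = 0.0197, and 0.0608, 0.0939 and 0.141 without keratocyte replicate 3, P10 replicate 1 and P10 replicate 2). The last of these left 2 higher members and 3 within 2-fold.

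On the lower side, Sdc1 (syndecan 1), a proteoglycan of epithelial cells, read 945 and 725 at P10 and 37.8, 19.1 and 33.5 in culture (limma adjusted p = 2.78e-07). Itga6, the laminin receptor of basal epithelium, read 358 and 266 against 88.4, 40.9 and 91.5, and the tetraspanin Cd9 1690 and 1347 against 777, 392 and 573 (limma adjusted p = 0.0154 and 0.0153). Neither held without keratocyte replicate 2 (0.0569 and 0.0567), P10 replicate 1 (0.14 and 0.142) or P10 replicate 2 (0.0629 and 0.0604), each of which left 1 lower member. The epithelial markers moved with these genes, and their part was not tested. The tetraspanin Cd151 and the integrin chain Itgb7 were within 2-fold under each of the 21 alternatives.

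The culture was labelled as keratocytes, and its keratocyte markers were retained unevenly. Of 10 tested, 1 was higher and 1 lower (10% each, near the 9.15% and 6.8% of all genes tested). A further 3 were within 2-fold and 5 unresolved, and the summed signal was 11280 to 22460 in culture and 22230 to 22359 at P10. Aldh3a1, a crystallin of the corneal cells that is also abundant in epithelium, read 6391 and 7062 at P10 and 3778, 125 and 2327 in culture. The cultures lay below both P10 arrays, but the log2 difference of -2.64 was unresolved (limma adjusted p = 0.165), and -1.18 without keratocyte replicate 2 (0.468). Transketolase (Tkt), another corneal crystallin, read 5032 and 4711 against 1531, 635 and 1021, with a log2 difference of -2.27 ± 0.26 (SE), and -1.95 without keratocyte replicate 2. Epithelial markers were lower in 27 of 28 cases, and their part in the values of Aldh3a1 and Tkt was not tested. Ogn (osteoglycin) read 498 and 373 at P10 and 2478, 474 and 1447 in culture, and was unresolved (limma adjusted p = 0.163). Keratocyte replicate 2 was the lowest of the 3 cultures for Kera, Lum, Aldh3a1, Tkt and Ogn. Without it 46 matrix, 38 growth and 25 contractile genes were higher, and 12, 12 and 6 were lower.

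The highest rises over all genes were outside the matrix lists except for Mmp3. Chil1, a chitinase-like secreted protein, was at the floor of 1 on both P10 arrays and read 2549, 1575 and 2527 in culture. Saa3, an acute-phase protein, read 34.9 and 18.0 against 5266, 5053 and 5297. The chemokines Cxcl5 and Ccl2, the lysozyme Lyz2, the protease inhibitor Serpina3n, the vasodilator peptide adrenomedullin (Adm), the cytochrome Cyp1b1 and the pseudogene Saa-ps made up the rest, all below the background level at P10. Saa3 and Saa-ps belong to 1 family of similar sequences, and their signals may be shared. Lyz2 is a marker of macrophages, of whose list 10 of 24 were higher in culture. The deepest falls were Col17a1, Krt19, Krt14, Itgb4 and Sfn, genes of epithelium, Cryge and Cryba1 of the lens, Sag of the retina, the carboxylesterase Ces2g and 2610528A11Rik. The cornea-specific keratin Krt12 read 6554 and 7228 at P10 and 253, 233 and 227 in culture (log2 difference -4.77, limma).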

How the data were processed

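RNA from 14 samples was measured on 1-colour Affymetrix arrays. The deposited values are probe set intensities on a linear scale with a floor of 1, scaled to a target of 150 in Microarray Suite 5.0 per the labels. The 2% trimmed means of the 5 arrays compared were 187 to 225, so the scaling as deposited is not settled. The sources used here do not say how values at the floor arose. Signals are not counts, and precision is limited by the number of arrays.

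Of 12488 probe sets 66 were controls. Of the other 12422, the platform annotation gave 1 symbol for 10833, several for 396 and none for 1193; only the first kind entered the gene lists. The 10088 probe sets with a mean of 50 or more in either group were fitted as log2(signal + 16) with limma 3.58.1 (R 4.3.3), 1 mean per group over all 14 arrays (9 residual degrees of freedom), a variance trend and Benjamini-Hochberg adjustment over all probe sets. Tests were two-sided. The background level came from 19 control probe sets (266 values, median 42.19, highest 256.8). For a gene with several probe sets, the 1 with the highest mean of both groups was used. Of 126 other probe sets of 103 list genes, 72 fell in the same category and 0 were called in the opposite direction.

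The members and lists, 27 in all, were written from general knowledge with earlier results of these data known. Named genes were, per list, up to 4 called genes each way with the highest differences whose arrays did not overlap and up to 3 genes within 2-fold with the narrowest intervals, the 10 largest rises and falls over all genes, and 17 genes listed by name; other genes were named, and those in the plots chosen, after their values were seen. Tested on data made with known answers for this comparison (200 of 10088 probe sets changed), the fit recovered 40% of log2 differences of 1 and 94% of those of 2, with 8 false calls. Those data had normal noise with the same spread in every group, as the fit assumes, and fewer changes than were called here. The rates may therefore not hold for the real arrays. The alternatives were other constants, filters, normalizations, sample sets, variance estimates, thresholds and probe set rules, and leaving out each array. Promoter sequences came from RefSeq. Genome positions of the probe sets were not used here.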

Additional observations from a re-analysis of the deposited data

How the results depend on the processing

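Of 110 named genes past the threshold, 0 changed direction under the 21 alternatives. Of these alternatives 19 kept the threshold, and under all 19 of them 75 genes kept their call, while 35 lost it under at least 1. Leaving out P10 replicate 1 ended 29 calls and P10 replicate 2 ended 25, against 9 to 14 for a keratocyte array, since 1 array was then left at P10, whose spread was taken from the rest of the arrays. When the fit held the 5 arrays compared and no others, the counts rose to 1485 probe sets higher, 1081 lower and 60 growth genes higher. With array quality weights they rose to 2500 and 1854 probe sets, 26 matrix genes lower, 76 growth genes higher and 30 lower, and 41 contractile genes higher and 13 lower; the cause was not tested. At an adjusted p below 0.01 the counts were 520 and 444 probe sets, 8 growth genes lower and 5 contractile genes lower, and with a change of 2-fold or more 448 probe sets and 6 growth genes were lower. Leaving out 1 array gave 476 to 913 probe sets higher and 392 to 591 lower, 31 to 46 matrix genes higher and 8 to 17 lower, 30 to 38 growth genes higher and 8 to 12 lower, and 18 to 25 contractile genes higher and 2 to 8 lower. The counts within 2-fold were then 33 to 47, 67 to 88 and 22 to 28. The labels do not pair the arrays and the groups share 2 replicate numbers, whose deviations correlated at 0.294 and 0.142. With the replicate block 1140 probe sets were higher and 880 lower, with 51, 49 and 29 matrix, growth and contractile genes higher and 21, 17 and 11 lower, and all 110 named calls held. Among the named genes not called as reported, those called with the block were Aldh3a1, Kera and P4hb (limma adjusted p = 0.0239, 0.0151 and 0.0396). Of these Aldh3a1 and P4hb were called under no other alternative, and Kera was called, as lower, under 5 others. Igf2 was called, as lower, under 5 alternatives, with limma adjusted p from 0.0074 with array quality weights to 0.0427 with a constant of 64. The alternative of scaling each array to the stated target was chosen after seeing the data. Over all probe sets the median difference (log2) lay between -0.0508 and 0.0376 under every alternative. The signals were already scaled per the labels, and some alternatives set the arrays to a common level. This median therefore cannot show how large a shift in scale or in RNA composition was. Signals below 137.7 limit what can be said of genes absent from 1 group.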

Other observations

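Markers of other cell types gave further values. Of 24 markers of macrophages and leukocytes 10 were higher in culture. Lyz2 (lysozyme) averaged 3.87 at P10 and 1130 in culture, the cathepsin Ctss 45.8 and 714, the surface protein Cd53 5.58 and 190, Cd68 81.0 and 389, and the complement gene C1qa 77.7 and 317, all with P10 means below the background level. H2-Eb1, a class II antigen of the same list, was lower, at 345 and 199. At an unadjusted p below 0.05 limma gave 12 higher and 2 lower members. The lower ones were H2-Eb1 and C1qb, another complement gene, so C1qa does not stand for both C1q genes. Endothelial Cdh5 averaged 67.2 and 317 and Emcn 75.3 and 237, while Pecam1 was not called. Among the peripheral nerve genes the myelin gene Pmp22 was higher, at 271 and 816, and Mbp lower, at 261 and 83.7.

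Of 5 red blood cell genes 2 were lower in culture, with sums of 2868 to 4105 at P10 and 515 to 541 in culture. Of 18 skeletal muscle genes 1 was lower (5.56%, near the 6.8% of all genes tested), and the sums were 4044 to 4885 and 3448 to 3758. Of 8 pigment cell genes 1 was lower (12.5%, beside 6.8%), and the sums, 2145 to 5585 and 2397 to 2765, overlapped. Of 11 lens genes 6 and of 15 retina genes 12 were lower.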
